A study of Rattus norvegicus with 28 samples.

Results

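The response of primary rat microglia to ENV, the envelope protein of a human endogenous retrovirus of the W family, was described from 6 of the 28 libraries of the series, 3 given ENV and 3 given the buffer that carried it. The libraries were chosen by their titles, and every gene in their count tables was considered. Of 23139 listed genes, 12844 had enough counts to be tested. Cells of both groups were Wistar rat cells, taken from cortex on postnatal day 1 and kept in mixed cultures for 10 days in serum, after which microglia were shaken off and bound to CD11b/c magnetic beads. ENV was a recombinant protein given at 1 µg/ml, 1 day after isolation, and the other group received its buffer in the same serum-containing medium. The sources used here do not give how long the cells were stimulated, how many animals were pooled, or whether replicate numbers stood for litters. Without that, a p-value reflects only how the libraries of a group varied, and part of that variation may be technical. All groups had n = 3.

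Microglia are the resident macrophages of the brain. They take up debris into lysosomes, support neurons and myelin-forming cells with growth factors, and switch to a secretory, inflammatory programme when pattern receptors such as TLR4 are engaged. ENV is a retroviral surface protein known to be sensed through TLR4 and CD14 on innate immune cells. The inflammatory arm of that switch (cytokines, chemokines, interferon-stimulated and antigen presentation genes) is well known, so it was set aside here as a pattern of gene symbols, and the genes beyond it were described.

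Library totals ran from 26513999 to 30640591 counts, so that a count of 0 allowed up to 0.0979 to 0.113 CPM, the unit used throughout (counts scaled to the library total), taking 3 counts as the limit. The microglial and macrophage marker list summed to 20170 to 26360 CPM with buffer and 20520 to 21980 CPM with ENV. One of its 20 markers, Siglech, was at 0 in all 6 libraries. By the test given below, 4 of the 19 markers tested were called higher with ENV and 5 lower. These shares were 21.1% and 26.3%, against 16.2% and 14.7% over all genes. The log2 changes of the markers ran from -2.81 to 1.57. In a principal component analysis of the 6 libraries, PC1 (72.92% of the variance) parted buffer (-62.6 to -57.0) from ENV (50.6 to 74.3). Buffer replicate 3 stood apart on PC2 (15.34%), at -50.83, with ENV replicate 3 at -19.73 and the other libraries above 0. In buffer replicate 3, genes matching the symbol pattern for ribosomal proteins summed to 45790 CPM, against 31410 and 32210 CPM in the other buffer libraries and 20780 to 26830 CPM with ENV. The pattern also took in kinase genes such as Rps6ka6.

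ENV changed the level of 3972 of 12844 genes, or 30.9%, at an adjusted p under 0.05 (edgeR quasi-likelihood F test with Benjamini-Hochberg adjustment over all genes tested, 2-sided). Of these, 2084 rose (16.2% of the genes tested) and 1888 fell (14.7%). The rises had a median log2 change of 0.95 and the falls one of -1.11, and 991 rises and 1058 falls exceeded 2-fold. At a log2 change of over 3, or 8-fold, there were 242 rises and 106 falls. The pattern of known inflammatory symbols held 301 tested genes, of which 183 rose and 24 fell. Outside it, 1901 of 12543 genes rose and 1864 fell, or 94.8% of all calls. That share reflects the size of the set, which held 12543 of the 12844 tested genes. Inside the pattern 60.8% rose and 7.97% fell, against 16.2% and 14.7% over all genes. The pattern is one of symbols and may miss some inflammatory genes. Without buffer replicate 2 the count of calls was 2466, without ENV replicate 1 2548 and without ENV replicate 2 2595, and the falls were 1212 without buffer replicate 1. When counts were scaled by library totals alone, the median gene lay at -0.23 in place of -0.03, and 1432 genes were called higher against 3118 lower. The direction of a small change is thus relative to the median gene. Every gene called here and given a value under an alternative kept its direction there. The calls here come from a test of group alone. With replicate numbers added as a block, 5036 genes were called, 2512 higher and 2524 lower.

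Rises and falls lay in different parts of the abundance range, as the plot of change against level shows. The genes were split into 4 equal bins by mean CPM. In the highest bin, 31.5% were called higher and 9.90% lower. In the lowest bin, 8.72% were called higher and 15.6% lower. Rises were thus the commoner call among abundant transcripts and falls among scarce ones. The called genes that rose gained 197700 CPM in sum, and the sum over those called lower fell by 130600 CPM.

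**Figure D1:**
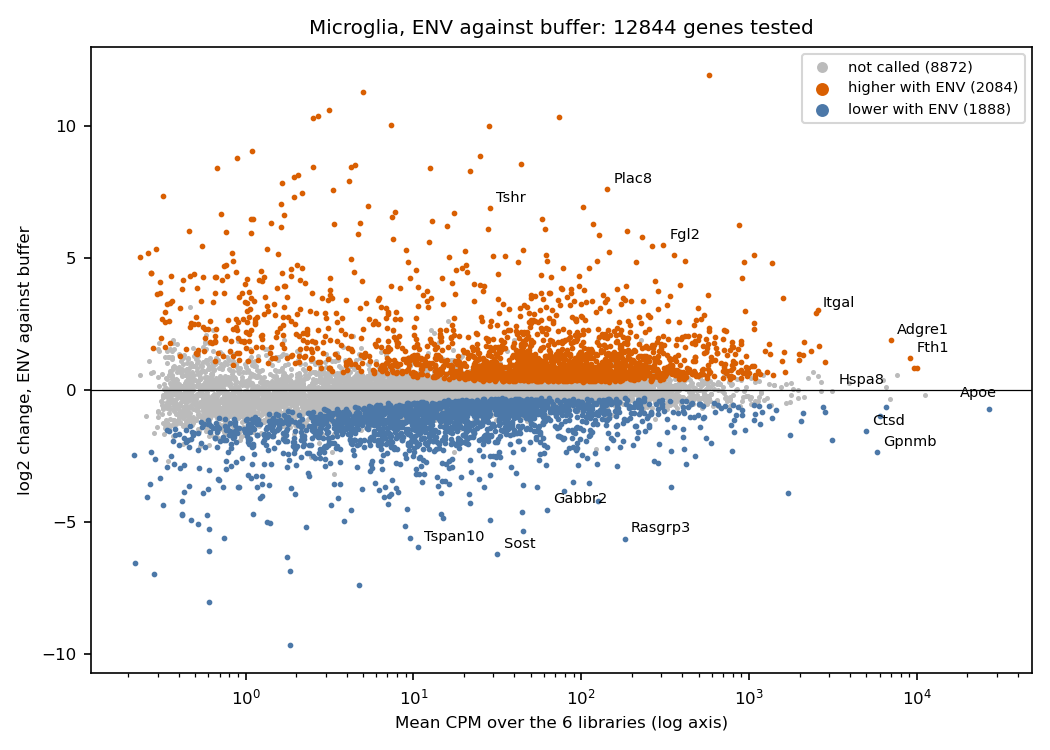
Log2 change of each of the 12844 tested genes (ENV against buffer, vertical axis) against its mean CPM over the 6 libraries (horizontal log axis). Orange points are the 2084 genes called higher, blue points the 1888 called lower and grey points those not called; at high levels orange points outnumber blue ones.

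Among genes outside the inflammatory pattern, the 12 largest rises held surface receptors, transporters and secreted enzymes. Plac8, which encodes a small cysteine-rich protein of myeloid and epithelial cells, stood at 0.151, 0.245 and 4.48 CPM in buffer replicates 1 to 3 and 285, 189 and 377 CPM in ENV replicates 1 to 3. The groups were far apart, with buffer 3 the highest of the buffer libraries. Its log2 change was 7.60 ± 1.13 (SE; adjusted p = 0.00334), or 10.66 without buffer replicate 3. Tshr, the thyrotropin receptor, read 0.490, 0.735 and 0.404 CPM with buffer and 49.9, 81.6 and 38.4 CPM with ENV (log2 change 6.89 ± 0.39, adjusted p = 1.51e-04). Fgl2, a membrane-bound prothrombinase, read 15.01, 13.4 and 18.1 CPM with buffer and 711, 550.2 and 547 CPM with ENV (log2 change 5.49 ± 0.23, adjusted p = 9.13e-05). For both genes every ENV library lay far above every buffer library. Lgals9, which encodes the glycan-binding protein galectin-9, read 6.49, 4.55 and 14.99 CPM with buffer and 331, 213 and 304 CPM with ENV (log2 change 5.21 ± 0.52, or 5.90 without buffer replicate 3). Gda, the guanine deaminase of purine breakdown, read 0.867, 0.490 and 0.135 CPM with buffer and 41.4, 24.6 and 28.0 CPM with ENV (log2 change 6.20 ± 0.54, or 6.87 without buffer replicate 1). Groups did not overlap for any of the 12, by the rule that chose them. The others were Gm4131 (log2 change 6.96 ± 0.82), Lilrc2 (6.70 ± 0.54), Plet1 (6.56 ± 0.47), Adora2a (5.61 ± 0.63), Mmp9 (5.44 ± 0.59), Slc7a11 (5.30 ± 0.58) and Slc7a2 (5.06 ± 0.78, or 5.65 without buffer replicate 2). Lilrc2 belongs to a receptor family whose members share sequence, so its reads may come in part from relatives. The log2 change of Gm4131 was 6.31 when ENV replicate 1 was left out, 6.36 when buffer replicate 2 was and 8.25 when buffer replicate 3 was.

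The 12 largest falls held several receptors and signalling proteins. By the same rule, each had to start from a buffer mean of at least 10 CPM, so scarcer genes were left out. Rasgrp3, an exchange factor that loads Ras and Rap with GTP, read 424, 405 and 239 CPM with buffer and 4.80, 6.72 and 7.12 CPM with ENV (log2 change -5.64 ± 0.28, adjusted p = 1.25e-04). Gabbr2, a subunit of the GABA-B receptor, read 159.8, 123 and 79.3 CPM with buffer and 3.83, 4.31 and 5.38 CPM with ENV (log2 change -4.54 ± 0.29, adjusted p = 2.09e-04). Sost, a secreted antagonist of Wnt signalling, read 52.3, 74.3 and 60.9 CPM with buffer and 0.577, 0.914 and 0.693 CPM with ENV (log2 change -6.21 ± 0.21, adjusted p = 4.25e-05). No ENV library came near a buffer library in these 3 genes, and buffer 3 was the lowest buffer library for Rasgrp3 and Gabbr2 but not for Sost. Gpr183, the oxysterol receptor that guides immune cells, read 82.1, 43.8 and 41.1 CPM with buffer and 3.03, 0.979 and 0.726 CPM with ENV (log2 change -4.93 ± 0.61, or -5.85 without ENV replicate 1). Dhrs9, a dehydrogenase of retinoids and steroids, read 136, 91.8 and 30.1 CPM with buffer and 4.15, 3.66 and 1.15 CPM with ENV (log2 change -4.63 ± 0.70). Here the buffer libraries spread widely, with buffer 3 the lowest, and still lay above every ENV library. Filip1, which binds filamin, changed by -4.86 ± 0.45, and Plxdc2, a transmembrane protein with a plexin repeat, by -4.71 ± 0.35. Tspan10 (-5.95 ± 0.41), Klra5 (-5.62 ± 0.31), Lilrb3 (-5.35 ± 0.40) and Card14 (-5.15 ± 0.51) were others. Reads of Klra5 and Lilrb3 may be shared with relatives in their families.

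**Figure D2:**
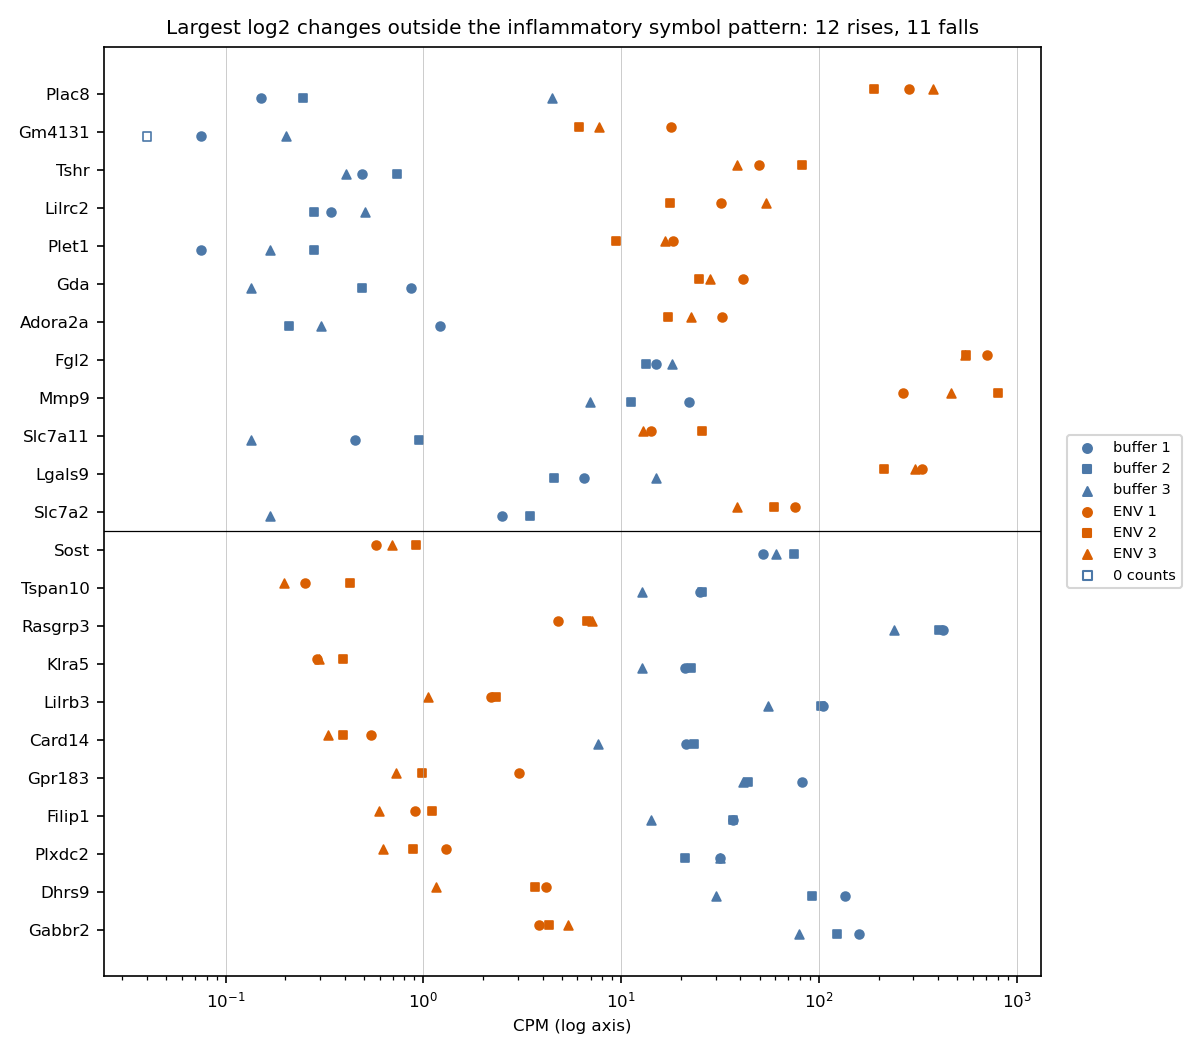
CPM of the 12 largest rises (upper rows) and 11 of the 12 largest falls (lower rows) outside the inflammatory symbol pattern, on a log axis, with 1 marker per library (blue buffer, orange ENV, marker shape for the replicate) and an open marker for 0 counts. In every gene the orange and blue markers are separate, and buffer replicate 3 is the lowest buffer library in the plotted falls other than Sost and Plxdc2.

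Genes chosen by their change in CPM instead of fold are abundant ones by construction. Among the 8 largest gains were Adgre1, which encodes the macrophage surface protein F4/80, at 3604, 3074 and 3304 CPM with buffer and 9952, 12539 and 9595 CPM with ENV (log2 change 1.88 ± 0.16, adjusted p = 4.26e-04), and Fth1, the iron-storing heavy chain of ferritin, at 6033, 6041 and 6296 CPM with buffer and 14277, 11371 and 10929 CPM with ENV (1.20 ± 0.17, 0.00287). Itgal, the alpha chain of the leukocyte integrin LFA-1, read 729.7, 667 and 611 CPM with buffer and 3812, 5095 and 4138 CPM with ENV (2.90 ± 0.16, adjusted p = 1.35e-04). In all 3 the lowest ENV library was well above the highest buffer library. Actb, the cytoplasmic actin, gained less in proportion, from 7926, 6751 and 8048 CPM with buffer to 12181, 11135 and 11683 CPM with ENV (0.82 ± 0.15). Psap, the precursor of the saposins that help lysosomes digest sphingolipids, changed by 0.81 ± 0.19 (adjusted p = 0.0199), a call lost without buffer replicate 2 (adjusted p = 0.0510), ENV replicate 1 (0.0689) or ENV replicate 2 (0.0693). Sod2 (3.03 ± 0.16), Il1b (3.47 ± 0.41) and a numbered copy of Slfn4 (4.81 ± 0.99, listed as Slfn4_1, with reads that may be shared, and 6.28 without buffer replicate 3) made up the rest.

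The largest loss in CPM was that of Apoe, the lipid carrier of glial cells, at 36622, 30404 and 39149 CPM with buffer and 21169, 17260 and 17288 CPM with ENV. The groups did not overlap, and the log2 change was -0.73 ± 0.19 (adjusted p = 0.0271). The call was lost without buffer replicate 1 (adjusted p = 0.0825), ENV replicate 2 (0.0999) or ENV replicate 3 (0.0973). Gpnmb, a transmembrane glycoprotein of lipid-laden phagocytes, read 11586, 11616 and 6481 CPM with buffer and 1920, 1925 and 1136 CPM with ENV (-2.36 ± 0.31, adjusted p = 0.00211). Spp1, the secreted phosphoprotein osteopontin, read 5452, 6958 and 2876 CPM with buffer and 1018, 1515 and 987 CPM with ENV (-1.91 ± 0.32, adjusted p = 0.00563). Cst3, an inhibitor of cysteine cathepsins, read 2588, 1762 and 3960 CPM with buffer and 811, 588 and 806 CPM with ENV (-1.72 ± 0.33, adjusted p = 0.00894). In each of these 3 genes the highest ENV library was below the lowest buffer library, although the buffer libraries differed widely among themselves. The proteases Ctsd (-1.57 ± 0.16) and Ctsb (-1.001 ± 0.14), the lipase Lpl (-3.92 ± 0.29) and a numbered copy of the ferritin light chain gene, Ftl1_1 (-0.66 ± 0.18, adjusted p = 0.0306), were the other 4. The call of Ftl1_1 was lost without buffer replicate 1 or 2 or ENV replicate 2 or 3 (adjusted p = 0.0541, 0.0566, 0.0938 and 0.104), and in the fit of all 12 microglial libraries (0.122).

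**Figure D3:**
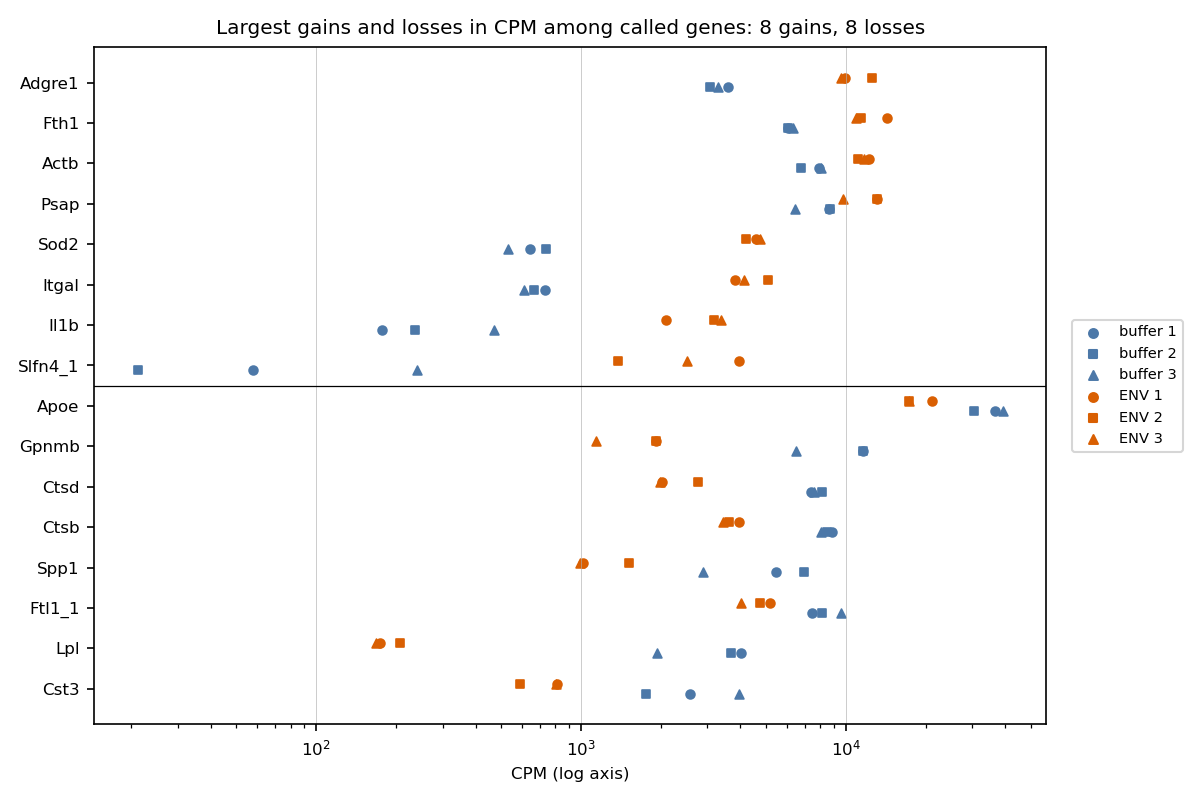
CPM of the 8 called genes with the largest gain and the 8 with the largest loss in mean CPM, on a log axis, with 1 marker per library (blue buffer, orange ENV, marker shape for the replicate). Apoe fell from between 30404 and 39149 CPM to between 17260 and 21169 CPM, while Adgre1 rose from at most 3604 to at least 9595 CPM.

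The genes were then read in 39 function lists, which together held 1460 tested genes, of which 664 were called. For each list, its counts stand against 16.2% called higher and 14.7% called lower over all genes. The bar plot of the lists shows that the share called lower was greatest for mitosis, DNA replication, the lysosome and DNA repair, and the share called higher for the proteasome, endoplasmic reticulum chaperones and metal handling.

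**Figure D4:**
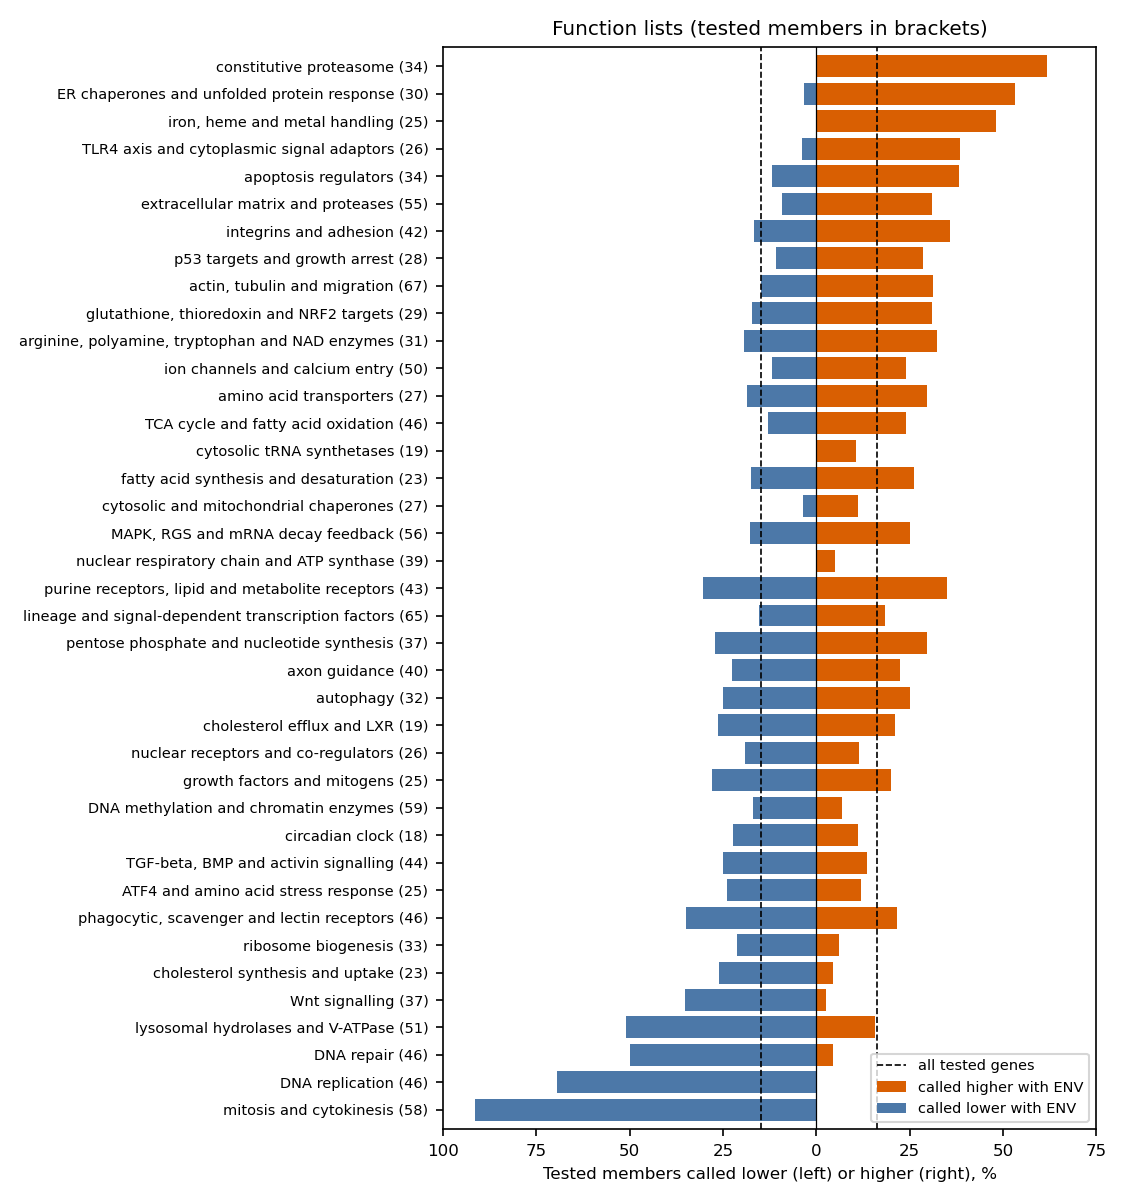
Percentage of each function list's tested members called higher (orange, right) or lower (blue, left) with ENV, ordered by the difference, with the number of tested members in brackets. Dashed lines mark the shares over all tested genes (16.2% and 14.7%); mitosis (91.4% lower) and the constitutive proteasome (61.8% higher) lie at the ends.

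Genes of cell division fell. Of 58 tested genes of mitosis and cytokinesis, 53 fell and 0 rose, with a median log2 change of -1.63 against -0.03 over all genes, and members between -2.45 and 0.28. Without ENV replicate 2 the count was 34, and in a fit of all 12 microglial libraries 31. Mki67, the proliferation antigen that coats mitotic chromosomes, read 162, 145 and 139 CPM with buffer and 10.7, 26.96 and 49.6 CPM with ENV (log2 change -2.17 ± 0.47, adjusted p = 0.0144). That call was lost without ENV replicate 2 (adjusted p = 0.0582), and without ENV replicate 3 the log2 change was -2.78. Ccna2, cyclin A2, read 38.0, 37.3 and 49.99 CPM with buffer and 3.68, 9.56 and 9.50 CPM with ENV (-2.28 ± 0.35, adjusted p = 0.00370). Spc24, of the kinetochore's NDC80 complex, read 8.18, 8.79 and 17.01 CPM with buffer and 1.01, 1.53 and 2.90 CPM with ENV (-2.45 ± 0.46, adjusted p = 0.00844). Among ENV libraries, replicate 1 was the lowest in each of these genes. Summed over the list, the level was 1528, 1560 and 1665 CPM with buffer and 306.8, 561.8 and 671.6 CPM with ENV. The 5 members not called were Cdc25c, Aurka, Cenpk, Kif22 and Pttg1, and Kif22 was called with a replicate block (adjusted p = 0.0355). The log2 change of Kif22 was -0.95 with all 6 libraries and -0.26 without buffer replicate 3 (adjusted p = 0.635). Aurka, a centrosomal kinase, read 23.0, 26.4 and 36.8 CPM with buffer and 17.8, 18.9 and 26.6 CPM with ENV, so that its groups overlapped (-0.25 ± 0.23, adjusted p = 0.438).

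Of 46 DNA replication genes 32 fell and 0 rose (median -1.10), or 14 without ENV replicate 2. Orc1, of the origin recognition complex, read 5.47, 4.34 and 6.20 CPM with buffer and 0.144, 0.555 and 1.19 CPM with ENV (-2.89 ± 0.58, adjusted p = 0.0107, and -3.70 without ENV replicate 3). Gins1, a subunit of the replicative helicase complex, changed by -2.23 ± 0.40 and the cell cycle repressor E2f7 by -2.17 ± 0.38. The call of E2f7 was lost in the fit of 12 libraries (adjusted p = 0.0941). The replicative helicase subunit Mcm3 read 48.6, 42.5 and 62.7 CPM with buffer and 18.6, 18.7 and 34.99 CPM with ENV and was not called (-0.90 ± 0.28, adjusted p = 0.0506). With a replicate block it was called (adjusted p = 0.00361), as it was without ENV replicate 3 (0.0138), with library totals alone (0.0272) or by DESeq2's test (0.0157). Of 46 DNA repair genes, 23 fell and 2 rose (median -0.59). The count of falls was 12 without buffer replicate 1, 11 without buffer replicate 2, 13 without ENV replicate 1 and 9 without ENV replicate 2, and that of rises was 0 when any 1 library other than buffer replicate 3 was left out. Neil3, a DNA glycosylase of base excision repair, read 0.981, 1.44 and 1.62 CPM with buffer and 0.0361, 0.228 and 0.264 CPM with ENV (-2.70 ± 0.54, adjusted p = 0.0106). Parp1, an abundant sensor of strand breaks, was not called (0.01 ± 0.13, adjusted p = 0.966). Genes of the pentose phosphate pathway and nucleotide synthesis held 11 rises and 10 falls among 37 (7 and 16 with library totals alone), with 7 rises without buffer replicate 1, buffer replicate 2 or ENV replicate 3. Of the enzymes that supply deoxynucleotides, Tk1 changed by -1.94 ± 0.36 and Rrm2 by -1.88 ± 0.38.

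Oligodendrocyte lineage markers were also lower in sum with ENV. Their 18 markers summed to 621.4 to 865.2 CPM with buffer and 318.6, 499.3 and 514 CPM in ENV replicates 1 to 3. Of 14 tested, 5 fell and 1 rose, and none was at 0 in all 6 libraries. The falls were 3 without buffer replicate 1, buffer replicate 2 or ENV replicate 3 and 2 without ENV replicate 1 or 2, and the rise was lost without buffer replicate 1 or 2 or ENV replicate 1 or 3. With a replicate block 8 fell. Sox10, a factor that defines this lineage, read 42.5, 60.7 and 51.9 CPM with buffer and 12.5, 24.7 and 27.9 CPM with ENV (-1.06 ± 0.28, adjusted p = 0.0265, or 0.0834 without buffer replicate 2 and 0.0650 without ENV replicate 2, and 0.620 in the fit of 12 libraries). Astrocyte markers, of which Gjb6 was at 0 throughout, summed to 247.3 to 302.7 CPM with buffer and 121 to 246.4 CPM with ENV, with 1 of 12 tested lower and 0 higher. The lower count was 2 without ENV replicate 3 and 0 in the fit of 12 libraries, and with a replicate block 2 markers were lower and 2 higher. Neuronal markers summed to 95.9 to 169.9 and 40.7 to 112 CPM, with 3 of 10 tested lower, or 1 when any 1 library other than buffer replicate 3 was left out. The oligodendrocyte sum and the mitosis sum were both lowest in ENV replicate 1. So were the astrocyte sum (121, 156.3 and 246.4 CPM in ENV replicates 1 to 3) and the neuronal sum (40.7, 84.2 and 112 CPM). The part of these markers in the fall of the division genes was not tested. In bulk libraries, fewer cells of a type and less RNA per cell cannot be told apart.

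Mitotic genes are known to share promoter elements, the cell cycle genes homology region (CHR, searched as TTTGAA) and the CCAAT box (CCAAT), which bind the DREAM and MuvB complexes and the factor NF-Y. RefSeq promoter windows of the build GRCr8 (250 bases before to 50 after the transcript start) were given for 50 of the 58 mitosis genes and for 9669 of the tested genes. On either strand, CHR letters stood in 35 of the 50 (70.0%), against 11.3% of tested genes and 18.1% of all 27457 windows. CCAAT letters stood in 36 (72.0%), against 37.9% and 37.7%. In 38 windows of DNA replication genes the shares were 10.5% and 63.2%. A match of letters is a description and not a bound site, and both motifs share letters at one place in the Mki67 window. The upstream 250 bases of Mki67 and of Cdk1, the kinase that drives entry into mitosis (36.0, 39.2 and 53.4 CPM with buffer and 3.03, 9.92 and 14.6 CPM with ENV, log2 change -2.04 ± 0.49, adjusted p = 0.0201, 0.0665 without ENV replicate 2 and 0.0787 in the fit of 12 libraries), are shown because each holds several copies of both, 5′ to 3′ on the gene's strand with matches of either strand in capitals. The Mki67 window is chr1:199952594-199952843 on the minus strand and the Cdk1 window chr20:19265043-19265292 on the plus strand.
Mki67: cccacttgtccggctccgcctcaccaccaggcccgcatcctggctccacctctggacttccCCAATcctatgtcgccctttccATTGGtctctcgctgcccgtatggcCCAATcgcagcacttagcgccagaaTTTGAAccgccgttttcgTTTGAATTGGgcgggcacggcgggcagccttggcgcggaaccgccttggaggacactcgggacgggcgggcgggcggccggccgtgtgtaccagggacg
Cdk1: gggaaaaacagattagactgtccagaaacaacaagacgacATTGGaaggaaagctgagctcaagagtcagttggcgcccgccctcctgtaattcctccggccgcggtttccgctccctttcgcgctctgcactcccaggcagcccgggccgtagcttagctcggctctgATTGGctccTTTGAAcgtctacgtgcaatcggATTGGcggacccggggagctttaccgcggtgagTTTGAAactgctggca
The Mki67 stretch held 6 matches, the first at position -189 from the transcript start, and the Cdk1 stretch 5, the first at -210.

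Growth arrest genes were mixed. Of 28 p53 targets and growth arrest genes, 8 rose and 3 fell (5 and 7 with library totals alone), with 4 rises without buffer replicate 1, 3 without buffer replicate 2, ENV replicate 1 or ENV replicate 2, and 5 without buffer replicate 3, and 1 fall without ENV replicate 2. Gadd45b, a stress-induced regulator of MAP kinases, read 23.0, 19.1 and 37.5 CPM with buffer and 75.6, 60.2 and 81.6 CPM with ENV (1.64 ± 0.29, adjusted p = 0.00623). The p53 target and cyclin-dependent kinase inhibitor Cdkn1a read 139, 169 and 115 CPM with buffer and 559.9, 337 and 174 CPM with ENV (1.57 ± 0.41, adjusted p = 0.0280). Its ENV libraries spread widely, with replicate 3 the nearest to buffer, and the call was lost without any 1 of buffer replicates 1 to 3 or ENV replicates 1 and 2 (adjusted p = 0.0739, 0.0649, 0.0618, 0.0608 and 0.0637). Cdkn2c, another such inhibitor, changed by -1.302 ± 0.27, which was no longer called when ENV replicate 2 was left out (adjusted p = 0.0537). With a replicate block, 6 members of the list fell.

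Many genes of protein folding in the endoplasmic reticulum (ER) rose. Of 30 tested ER chaperones and unfolded protein response genes, 16 rose and 1 fell (median 0.54). P4hb, a protein disulfide isomerase, read 1291, 1247 and 1173 CPM with buffer and 2676, 2853 and 2743 CPM with ENV (1.36 ± 0.11, adjusted p = 4.03e-04). Calr, the calcium-binding lectin chaperone calreticulin, read 1282, 1308 and 1505 CPM with buffer and 2449, 2502 and 2803 CPM with ENV (1.12 ± 0.14, adjusted p = 0.00150). Each group was tight in both genes, with no overlap. Hspa5, the ER Hsp70 BiP, read 669, 710.4 and 779 CPM with buffer and 933, 1114 and 1145 CPM with ENV (0.76 ± 0.13, adjusted p = 0.00530). Herpud1, an ER membrane protein of the degradation machinery, was the 1 fall (2 genes fell without buffer replicate 3), at 94.3, 89.8 and 115 CPM with buffer and 51.7, 47.7 and 45.3 CPM with ENV (-0.85 ± 0.15, adjusted p = 0.00696). Ddit3, the stress factor CHOP, belonged to a separate list of the ATF4 response and changed by 1.51 ± 0.19 (adjusted p = 0.00159). That list held 3 rises and 6 falls among 25, with 3 falls without buffer replicate 2, ENV replicate 1 or ENV replicate 3. The ER list's sum was 7997 to 8092 CPM with buffer and 11720 to 12870 CPM with ENV. The count of 16 was 8 without buffer replicate 1, buffer replicate 2 or ENV replicate 3, 10 without ENV replicate 1 and 9 without ENV replicate 2, and 8 with library totals alone.

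Promoter windows were given for 22 of the 30 ER genes. CCAAT letters stood in 20 of them (90.9%), against 37.9% of tested genes with a window, and CHR letters in 1. The CCAAT share was also above that of tested genes in lists that did not rise. It was 81.2% in cholesterol synthesis and uptake, 72.0% in mitosis, and 64.3% in both the cytosolic tRNA synthetases and the circadian clock. The 250 bases before Calr and P4hb are shown as the 2 largest rises of the list, with CCAAT in capitals (ATTGG is the same box on the other strand). They lie at chr19:40213117-40213366 on the plus strand and chr10:106346912-106347161 on the minus strand.
Calr: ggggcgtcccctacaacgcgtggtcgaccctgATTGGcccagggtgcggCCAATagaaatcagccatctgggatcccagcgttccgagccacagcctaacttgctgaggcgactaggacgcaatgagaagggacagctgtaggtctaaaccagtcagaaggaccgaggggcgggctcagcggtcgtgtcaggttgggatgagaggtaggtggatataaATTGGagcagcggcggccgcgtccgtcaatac
P4hb: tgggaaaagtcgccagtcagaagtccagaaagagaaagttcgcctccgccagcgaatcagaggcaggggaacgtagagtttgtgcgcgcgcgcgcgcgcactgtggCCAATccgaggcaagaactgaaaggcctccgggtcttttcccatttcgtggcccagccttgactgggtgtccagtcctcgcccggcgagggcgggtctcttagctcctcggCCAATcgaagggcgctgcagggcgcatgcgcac
The Calr stretch held 3 matches and the P4hb stretch 2.

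Subunits of the proteasome, which degrades ubiquitin-tagged proteins, rose by small amounts. Of 34 constitutive subunits, a list without the interferon-inducible ones, 21 rose and 0 fell (median 0.50, members between 0.12 and 0.89). Psmd11, a subunit of the regulatory lid, read 99.3, 108 and 101 CPM with buffer and 166, 164 and 169 CPM with ENV (0.89 ± 0.10, adjusted p = 9.37e-04). Psma3, a ring subunit of the core, read 151, 169 and 191 CPM with buffer and 265, 259 and 256 CPM with ENV (0.81 ± 0.13, adjusted p = 0.00449). For Psmb1, a core subunit with 155, 166 and 229.9 CPM with buffer and 199.8, 190.0 and 225 CPM with ENV, buffer 3 overlapped ENV and the gene was not called (0.35 ± 0.18, adjusted p = 0.183), or was called without buffer replicate 3 (0.00750). The whole list's sum was likewise highest among buffer libraries in replicate 3 (4832 CPM, against 3962 and 4204 CPM), next to 5313 to 5858 CPM with ENV. Without buffer replicate 3, 33 of 34 rose, whereas the count was 9 without buffer replicate 1, buffer replicate 2 or ENV replicate 3, 10 without ENV replicate 1, 13 without ENV replicate 2 and 11 with library totals alone. The excess of ribosomal protein symbols in buffer 3 was given above, and its part here was not tested.

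Few genes were called in other parts of the protein and energy machinery. Of 27 cytosolic and mitochondrial chaperones, 3 rose and 1 fell (2 and 4 with library totals alone), with 5 rises and 3 falls without buffer replicate 3 and 0 falls without buffer replicate 1 or 2 or ENV replicate 1 or 3. One of the rises was the Hsp70 partner Dnaja1 at 125, 144 and 125 CPM with buffer and 220.2, 219 and 188 CPM with ENV (0.87 ± 0.12, adjusted p = 0.00248). Of 19 cytosolic tRNA synthetases 2 rose and 0 fell (1 and 1 with library totals alone), and the rises were 4 without buffer replicate 3 and 1 without any other library. The mitochondrial respiratory chain held 2 rises and 0 falls among 39 nuclear-encoded genes (1 and 5 with library totals alone). The rises were 4 with a replicate block, 19 without buffer replicate 3 (with 2 falls) and 1 without any other library. Ribosome biogenesis had 2 rises and 7 falls among 33, with 12 falls without buffer replicate 3 and 4 without buffer replicate 1, buffer replicate 2, ENV replicate 1 or ENV replicate 3. The rises there were 4 without buffer replicate 3, 1 without ENV replicate 1 and 0 without buffer replicate 1 or 2 or ENV replicate 2. Myc, the growth-promoting factor counted in that list, read 47.4, 62.9 and 64.2 CPM with buffer and 11.98, 22.2 and 23.5 CPM with ENV (-1.41 ± 0.25, adjusted p = 0.00656, or 0.0916 in the fit of 12 libraries). Npm1, the nucleolar protein nucleophosmin, read 497, 551 and 627 CPM with buffer and 278, 315 and 326 CPM with ENV (-0.67 ± 0.13, adjusted p = 0.00963).

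Lysosomal genes fell, with exceptions. Of 51 tested hydrolases, membrane proteins and subunits of the proton pump (V-ATPase), 26 fell and 8 rose (median -0.49). The counts of falls lay between 23 and 25 when 1 library at a time was left out. Hexa, which encodes an enzyme that trims gangliosides, was among the largest falls, at 972, 976 and 976 CPM with buffer and 203, 232 and 200.2 CPM with ENV (-2.002 ± 0.11, adjusted p = 1.51e-04). Within each group the libraries lay close together, and the groups were far apart. The aspartic protease Ctsd read 7389, 8146 and 7562 CPM with buffer and 2022, 2760 and 1994 CPM with ENV (-1.57 ± 0.16, adjusted p = 7.19e-04). Against this direction, the pump subunit Atp6v0a1 read 356, 329 and 359.6 CPM with buffer and 831, 945 and 967 CPM with ENV (1.59 ± 0.12, adjusted p = 2.90e-04), the aminopeptidase Ctsh 386, 325 and 571 CPM with buffer and 788, 762 and 904 CPM with ENV (1.13 ± 0.24, adjusted p = 0.0121) and the sialidase Neu1 151, 156 and 121 CPM with buffer and 279, 251 and 228 CPM with ENV (1.03 ± 0.15, adjusted p = 0.00274). Among members not called, Ctss, a cathepsin of antigen processing, read 1186, 1274 and 1495 CPM with buffer and 1130, 1006 and 1014 CPM with ENV (-0.13 ± 0.15, adjusted p = 0.554). The list's sum went from between 56880 and 60110 to between 39610 and 44060 CPM.

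Tfeb, the factor that drives lysosomal genes through E-box-like elements, read 69.5, 56.3 and 58.4 CPM with buffer and 17.7, 17.00 and 16.0 CPM with ENV (-1.66 ± 0.14, adjusted p = 4.03e-04). Its relative Tfe3 moved the other way by a smaller amount, at 113, 111 and 114 CPM with buffer and 141, 147 and 137 CPM with ENV (0.53 ± 0.10, adjusted p = 0.00790). The E-box CACGTG stood in 10 of 40 lysosomal promoter windows (25%), against 9.46% of windows of tested genes and 6.65% of all windows. Shares were higher still in 3 other lists, ribosome biogenesis (33.3%), cytosolic tRNA synthetases (35.7%) and the circadian clock (28.6%). The 250 bases before Ctsd are shown because that gene lost most CPM in the list, with CACGTG in capitals, at chr1:206968822-206969071 on the minus strand.
Ctsd: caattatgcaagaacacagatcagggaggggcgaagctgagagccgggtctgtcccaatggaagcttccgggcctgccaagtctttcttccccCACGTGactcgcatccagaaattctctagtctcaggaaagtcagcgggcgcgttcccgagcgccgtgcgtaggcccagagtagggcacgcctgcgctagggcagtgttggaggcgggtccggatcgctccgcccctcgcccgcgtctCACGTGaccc
This stretch held 2 copies, the first at position -157 from the transcript start. Autophagy genes, which share many regulators with the lysosome, held 8 rises and 8 falls among 32 (2 and 9 with library totals alone), with 2 rises without buffer replicate 1, buffer replicate 2, ENV replicate 1 or ENV replicate 3 and 3 without ENV replicate 2. The falls were 4 without ENV replicate 1 or 3 and 5 without ENV replicate 2. Optn, an autophagy receptor for bacteria, read 86.2, 83.9 and 38.8 CPM with buffer and 153, 167 and 155 CPM with ENV (1.39 ± 0.28, adjusted p = 0.0104), and Gabarapl1, of the ATG8 family, 45.1, 49.5 and 47.3 CPM with buffer and 20.03, 21.4 and 25.7 CPM with ENV (-0.88 ± 0.12, adjusted p = 0.00226).

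Many genes that handle iron and other metals rose. Of 25 tested, 12 rose and 0 fell (median 0.81), and the count of rises was 11 to 16 when 1 library at a time was left out. The falls were 2 with a replicate block and 3 without buffer replicate 3. Neither these counts nor the list's sum include Ftl1_1, the numbered copy of the ferritin light chain gene given above. That copy was called lower (log2 change -0.66), with the limits stated there. Slc11a1, the phagosomal metal exporter NRAMP1, read 167, 157 and 222 CPM with buffer and 760.5, 537 and 640.3 CPM with ENV (2.03 ± 0.22, adjusted p = 0.00102). Steap4, a metalloreductase, read 1.018, 1.58 and 0.505 CPM with buffer and 14.7, 16.9 and 9.47 CPM with ENV (3.94 ± 0.42, adjusted p = 9.37e-04), and the metallothionein Mt2A 1.43, 1.65 and 0.606 CPM with buffer and 14.4, 12.96 and 5.81 CPM with ENV (3.39 ± 0.49, adjusted p = 0.00297). Every ENV library was well above every buffer library in all 3 genes. Slc31a1, the copper importer, was not called (-0.20 ± 0.15, adjusted p = 0.342), or was called lower without buffer replicate 3 (0.0197). The list's sum, of which Fth1 was the main part, went from 8461 to 8691 CPM to 14940 to 18620 CPM.

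**Figure D5:**
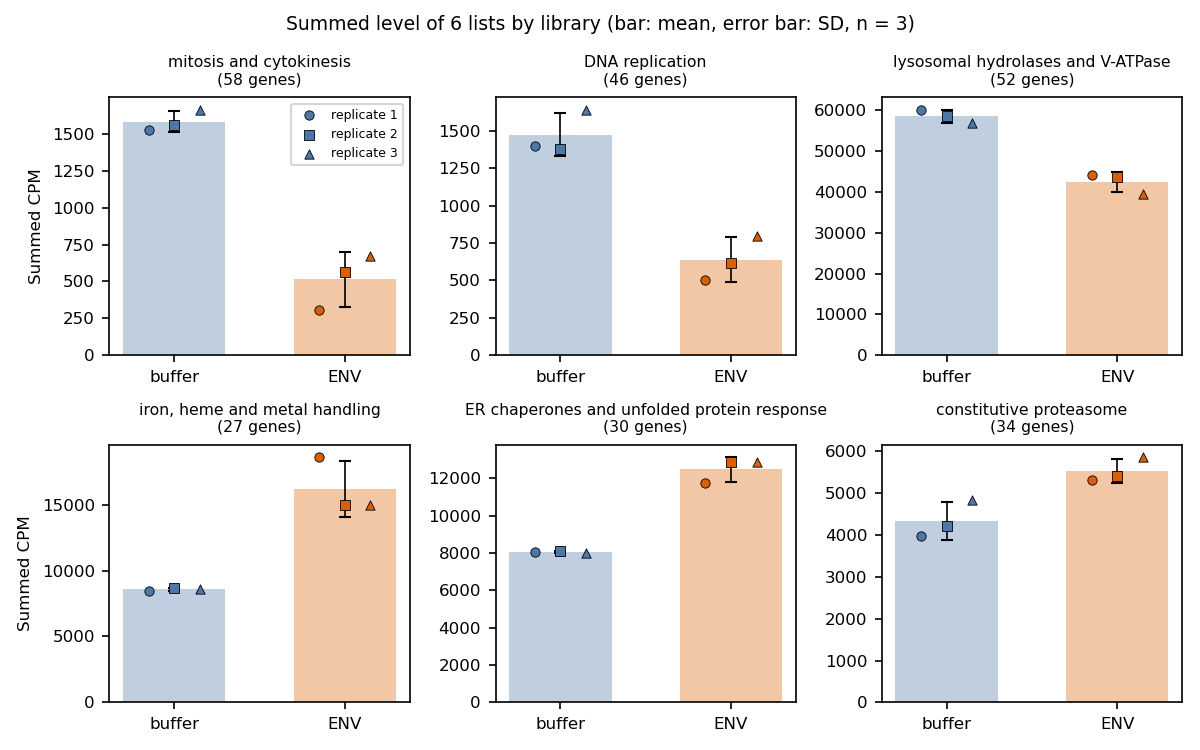
Summed CPM of the members of 6 lists in each library (points, marker shape for the replicate), with the group mean (bar) and SD (error bar, n = 3), buffer in blue and ENV in orange, each axis starting at 0. The mitosis sum went from at least 1528 to at most 671.6 CPM, and the ER chaperone sum from at most 8092 to at least 11720 CPM.

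Redox genes split by enzyme. Of 29 genes of glutathione, thioredoxin and NRF2 targets, 9 rose and 5 fell (7 and 7 with library totals alone), with 3 falls without buffer replicate 1 and 2 without buffer replicate 2 or any 1 ENV library. Glrx, glutaredoxin, read 35.9, 36.2 and 64.3 CPM with buffer and 481, 402 and 707 CPM with ENV (3.73 ± 0.34, adjusted p = 5.57e-04). Prdx5, a peroxiredoxin, read 276, 279 and 297 CPM with buffer and 1187, 1162 and 1157 CPM with ENV (2.24 ± 0.12, adjusted p = 1.34e-04), and the thioredoxin reductase Txnrd1 118, 133 and 112 CPM with buffer and 263, 262 and 295 CPM with ENV (1.38 ± 0.11, adjusted p = 3.20e-04). The microsomal glutathione transferase Mgst3 was among the falls, at 18.7, 22.4 and 15.9 CPM with buffer and 1.48, 2.19 and 1.68 CPM with ENV (-3.21 ± 0.21, adjusted p = 2.06e-04), as was Gpx4, which removes lipid peroxides, at 124, 143 and 179.8 CPM with buffer and 62.5, 78.2 and 72.6 CPM with ENV (-0.87 ± 0.16, adjusted p = 0.00850). The cystine importer Slc7a11, which feeds glutathione synthesis, read 0.453, 0.945 and 0.135 CPM with buffer and 14.1, 25.7 and 12.9 CPM with ENV (5.30 ± 0.58, adjusted p = 0.00104, and 6.08 without buffer replicate 2).

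Metabolic genes beyond glycolysis moved both ways. Among 46 genes of the TCA cycle and fatty acid oxidation, 11 rose and 6 fell (6 and 8 with library totals alone). The rises were 5 without buffer replicate 1 or 2 or ENV replicate 2 or 3 and 17 without buffer replicate 3, and the falls were 3 without buffer replicate 1 or any 1 ENV library. Me1, the cytosolic malic enzyme that makes NADPH, read 12.2, 16.9 and 14.8 CPM with buffer and 70.0, 60.6 and 52.0 CPM with ENV (2.26 ± 0.18, adjusted p = 3.51e-04). Pdk1, a kinase that turns off pyruvate dehydrogenase, read 18.5, 17.4 and 15.3 CPM with buffer and 29.4, 33.4 and 41.3 CPM with ENV (1.22 ± 0.15, adjusted p = 0.00151). Its relative Pdk4, low in these cells, read 1.32, 0.875 and 1.65 CPM with buffer and 0.108, 0.0653 and 0.132 CPM with ENV (-3.42 ± 0.47, adjusted p = 0.00248). In cholesterol synthesis and uptake, 6 of 23 fell and 1 rose (median -0.42), with 11 falls under a replicate block and 1 without buffer replicate 2, ENV replicate 1 or ENV replicate 2. The rise was Mvd (0.77 ± 0.21, adjusted p = 0.0283, or 0.0563 with library totals alone), with adjusted p between 0.0632 and 0.0931 when any 1 library other than buffer replicate 3 was left out. Sqle, squalene epoxidase, read 40.2, 58.7 and 48.0 CPM with buffer and 14.4, 25.7 and 23.3 CPM with ENV (-1.018 ± 0.22, adjusted p = 0.0134, and 0.0503 without buffer replicate 2). On the export side, 4 of 19 cholesterol efflux and LXR genes rose and 5 fell (median -0.07). Their sum went from between 39080 and 46540 CPM with buffer to between 21200 and 26490 CPM with ENV. Apoe and Lpl, given above, were among the falls, and Abca1 was not called (log2 change 0.67). Of the rises, the sterol-sensing receptor gene Nr1h3 read 14.8, 17.02 and 25.7 CPM with buffer and 54.8, 54.3 and 88.5 CPM with ENV (1.97 ± 0.28, adjusted p = 0.00302) and the lipid pump Abcg1 397, 254 and 208 CPM with buffer and 1055, 707 and 559.9 CPM with ENV (1.65 ± 0.34, adjusted p = 0.0110). Npc2, which hands cholesterol out of the lysosome, read 1448, 1467 and 1673 CPM with buffer and 648, 598 and 546 CPM with ENV (-1.15 ± 0.15, adjusted p = 0.00172). Acsl4, which activates arachidonic acid, read 142, 151 and 98.7 CPM with buffer and 385, 337 and 317 CPM with ENV (1.62 ± 0.18, adjusted p = 0.00119).

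Enzymes of arginine, polyamine and NAD metabolism were called in 16 of 31 cases, 10 higher and 6 lower (9 and 10 with library totals alone). Bst1 and Cd38, which consume NAD to make cyclic ADP-ribose, rose. Bst1 read 1.92, 1.51 and 2.69 CPM with buffer and 46.9, 29.5 and 42.2 CPM with ENV (4.47 ± 0.32, adjusted p = 2.67e-04), and Cd38 11.7, 7.91 and 19.5 CPM with buffer and 202, 64.6 and 218 CPM with ENV (3.83 ± 0.57, adjusted p = 0.00347). Enzymes that break down polyamines fell. Sat1, the spermidine acetyltransferase, read 636, 564 and 749 CPM with buffer and 165, 152 and 169.9 CPM with ENV (-1.80 ± 0.16, adjusted p = 4.86e-04), and the polyamine oxidase Paox 66.0, 53.4 and 66.4 CPM with buffer and 19.5, 17.1 and 15.4 CPM with ENV (-1.64 ± 0.17, adjusted p = 8.45e-04). Of 27 amino acid transporters 8 rose and 5 fell, with 5 rises without buffer replicate 2 or ENV replicate 1 and 3 falls without buffer replicate 1 or 2 or ENV replicate 2 or 3. The betaine and GABA transporter Slc6a12 read 30.2, 33.7 and 28.7 CPM with buffer and 239.9, 265 and 177 CPM with ENV (3.09 ± 0.18, adjusted p = 1.63e-04). The arginine carriers parted, Slc7a2 at 2.49, 3.47 and 0.168 CPM with buffer and 75.7, 59.5 and 38.6 CPM with ENV (5.06 ± 0.78, adjusted p = 0.00395) and Slc7a1 at 46.4, 63.8 and 31.5 CPM with buffer and 19.5, 19.4 and 14.5 CPM with ENV (-1.19 ± 0.25, adjusted p = 0.0133).

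Of 65 lineage and signal-dependent transcription factors, 12 rose and 10 fell (19 without buffer replicate 3; 11 and 14 with library totals alone), shares close to those of all genes. Batf, an AP-1 partner, read 11.4, 10.2 and 10.1 CPM with buffer and 146, 100.0 and 105 CPM with ENV (3.68 ± 0.21, adjusted p = 1.58e-04). Hif1a, the oxygen-regulated factor of glycolytic genes, read 204, 215 and 156 CPM with buffer and 895, 505 and 615 CPM with ENV (2.03 ± 0.26, adjusted p = 0.00182), and Foxp1, a forkhead repressor, 11.2, 11.1 and 7.14 CPM with buffer and 40.5, 41.7 and 30.6 CPM with ENV (2.15 ± 0.22, adjusted p = 7.43e-04). Egr1, an immediate early factor among the falls, read 54.3, 47.1 and 35.5 CPM with buffer and 10.5, 18.05 and 8.21 CPM with ENV (-1.70 ± 0.30, adjusted p = 0.00670), and Nr4a2, an orphan nuclear receptor, 8.75, 9.21 and 5.66 CPM with buffer and 1.66, 1.99 and 1.22 CPM with ENV (-2.07 ± 0.28, adjusted p = 0.00249). Zeb2 and Maf, abundant factors of macrophage identity, were not called (0.19 ± 0.43 and 0.10 ± 0.17, adjusted p = 0.763 and 0.681).

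Among 26 nuclear receptors and co-regulators, 3 rose and 5 fell. Pparg, the lipid-activated receptor that restrains inflammatory genes, read 11.2, 7.53 and 3.64 CPM with buffer and 0.180, 0.0979 and 0.330 CPM with ENV (-4.97 ± 0.59, adjusted p = 0.00143), and its partner family member Rxrg 2.68, 2.70 and 2.39 CPM with buffer and 0.144, 0.261 and 0.132 CPM with ENV (-3.62 ± 0.34, adjusted p = 5.85e-04). Both genes were near the detection floor in every ENV library. Esrra, a receptor that drives mitochondrial genes, read 19.01, 23.5 and 14.99 CPM with buffer and 53.6, 50.1 and 41.2 CPM with ENV (1.54 ± 0.19, adjusted p = 0.00155). Tsc22d3, the glucocorticoid-induced leucine zipper, read 28.9, 30.3 and 27.8 CPM with buffer and 11.8, 11.7 and 12.9 CPM with ENV (-1.05 ± 0.11, adjusted p = 9.76e-04). In the circadian list, 4 of 18 fell and 2 rose, with 1 rise without buffer replicate 1, buffer replicate 2 or ENV replicate 1. The clock repressor genes Bhlhe40 and Bhlhe41 were the largest falls, Bhlhe40 at 32.6, 31.4 and 21.4 CPM with buffer and 2.56, 2.64 and 1.55 CPM with ENV (-3.45 ± 0.28, adjusted p = 3.61e-04) and Bhlhe41 at 215, 269 and 265 CPM with buffer and 40.5, 55.0 and 80.3 CPM with ENV (-1.90 ± 0.24, adjusted p = 0.00169). Cry2, another repressor of the clock, read 18.9, 18.4 and 20.2 CPM with buffer and 38.0, 32.7 and 34.8 CPM with ENV (1.08 ± 0.13, adjusted p = 0.00154).

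Chromatin enzymes were called in 14 of 59 cases, 4 higher and 10 lower. The falls were 6 without buffer replicate 1 or 2, 4 without ENV replicate 2 and 19 without buffer replicate 3, and the rises were 2 when any 1 library other than buffer replicate 3 was left out. The list's sum was 2920 CPM in buffer 3, against 4120 and 4118 CPM in the other buffer libraries and 3488 to 3663 CPM with ENV. Setdb2, a histone methyltransferase gene induced by interferon, read 12.1, 11.6 and 19.3 CPM with buffer and 156, 43.3 and 99.8 CPM with ENV (3.01 ± 0.50, adjusted p = 0.00534). The ENV libraries spread widely, replicate 2 being the lowest, and lay above all buffer libraries. Hdac9, a class II histone deacetylase, read 36.2, 35.1 and 20.2 CPM with buffer and 1.80, 3.92 and 4.72 CPM with ENV (-2.93 ± 0.37, adjusted p = 0.00178), and Hdac1, a class I enzyme, 81.5, 84.6 and 101 CPM with buffer and 139, 138 and 149 CPM with ENV (0.87 ± 0.13, adjusted p = 0.00342). Uhrf1, which maintains DNA methylation at replication forks, changed by -1.53 ± 0.33 (adjusted p = 0.0132, or 0.0501 without ENV replicate 2).

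Receptors for purines, lipids and metabolites moved in both directions, with 15 of 43 higher and 13 lower (10 and 14 with library totals alone). Adora2a, the adenosine receptor that raises cyclic AMP, read 1.21, 0.210 and 0.303 CPM with buffer and 32.4, 17.2 and 22.6 CPM with ENV (5.61 ± 0.63, adjusted p = 0.00118, and 6.74 without buffer replicate 1). Gpr132, a receptor for oxidised fatty acids and lysolipids, read 0.981, 0.350 and 0.472 CPM with buffer and 6.71, 5.03 and 4.95 CPM with ENV (3.41 ± 0.42, adjusted p = 0.00163). S1pr1, the sphingosine phosphate receptor of cell egress, read 12.3, 14.7 and 17.7 CPM with buffer and 2.09, 1.73 and 1.72 CPM with ENV (-2.81 ± 0.23, adjusted p = 3.59e-04), and Gpr155, a lysosomal cholesterol sensor, 40.4, 33.3 and 32.9 CPM with buffer and 2.02, 3.92 and 3.43 CPM with ENV (-3.31 ± 0.24, adjusted p = 2.90e-04). The abundant ATP-gated channel P2rx4 was not called (-0.11 ± 0.23, adjusted p = 0.749). The cyclic AMP phosphodiesterase Pde4b read 16.3, 18.9 and 10.7 CPM with buffer and 171, 144 and 136 CPM with ENV (3.51 ± 0.23, adjusted p = 2.13e-04). Rgs1, which shortens G protein signals, read 71.0, 76.5 and 57.2 CPM with buffer and 6.57, 7.54 and 9.17 CPM with ENV (-2.93 ± 0.16, adjusted p = 1.40e-04).

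Of 50 ion channels and calcium entry genes, 12 rose and 6 fell (7 and 7 with library totals alone). The rises were 7 without buffer replicate 1, ENV replicate 1 or ENV replicate 2, and the falls 3 without buffer replicate 2 or ENV replicate 1 and 11 without buffer replicate 3. Trpm2, a calcium channel opened by ADP-ribose, read 77.2, 53.1 and 67.2 CPM with buffer and 298, 222 and 313 CPM with ENV (2.28 ± 0.22, adjusted p = 6.08e-04). The calcium-activated potassium channels parted, Kcnn3 at 0.113, 0.385 and 0.168 CPM with buffer and 2.42, 1.76 and 1.88 CPM with ENV (3.36 ± 0.45, adjusted p = 0.00230, and 3.96 without buffer replicate 2) and Kcnn4 at 4.79, 3.01 and 3.74 CPM with buffer and 1.299, 0.881 and 1.42 CPM with ENV (-1.48 ± 0.32, adjusted p = 0.0133). Both were scarce transcripts in these libraries. Cacna1a, a voltage-gated calcium channel, read 20.5, 22.2 and 10.2 CPM with buffer and 5.09, 6.36 and 5.18 CPM with ENV (-1.46 ± 0.29, adjusted p = 0.0101).

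Adhesion genes moved both ways. Of 42 tested, 15 rose and 7 fell. Itgal, given above, was among the rises. Itga4, the alpha 4 chain that binds VCAM-1, read 116, 146 and 33.6 CPM with buffer and 9.67, 17.9 and 13.2 CPM with ENV (-2.65 ± 0.51, adjusted p = 0.00920), and the immunoglobulin-type adhesion molecules Cadm1 159.6, 169 and 89.5 CPM with buffer and 26.3, 27.02 and 17.7 CPM with ENV (-2.34 ± 0.28, adjusted p = 0.00147) and Alcam 201, 189 and 88.4 CPM with buffer and 26.8, 40.9 and 23.5 CPM with ENV (-2.19 ± 0.34, adjusted p = 0.00417). In these 3 genes, buffer 3 was the lowest buffer library and still above ENV. Itgb1, the shared beta chain, was not called (-0.41 ± 0.24, adjusted p = 0.228), or was called lower without buffer replicate 3 (adjusted p = 0.0110). Markers of endothelium summed to 76.9 to 86.4 CPM with buffer and 131.9 to 217 CPM with ENV, with 3 of 8 tested higher and 1 lower (0 lower without ENV replicate 2, 3 without buffer replicate 3 and 2 with a replicate block). Their median log2 change had the other sign from the sum, at -0.52, and lay at -1.16, -0.47 and 0.49 in replicate pairs 1 to 3. Markers of granulocytes and blood monocytes summed to 66.2 to 117.1 CPM with buffer and 191.2 to 369.6 CPM with ENV. Of 5 tested, 3 were higher and 1 lower, with a median log2 change of 1.88 and values from -3.26 to 4.03. Of the untested markers, Mpo, Elane, Ltf and Retnlg were at 0 in all 6 libraries. Lymphocyte markers summed to 30.3 to 45.5 and 61.3 to 91.8 CPM, with 1 of 4 tested higher (Lck; 2 without buffer replicate 3 and all 4 with a replicate block) and 7 others, among them Cd3e, Cd3d and Ms4a1, at 0 in all 6. Their part in the adhesion result was not tested.

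Of 67 actin and migration genes 21 rose and 10 fell, or 15 and 18 with library totals alone. The rises were 12 without buffer replicate 2 and 13 without ENV replicate 1, and the falls 3 without buffer replicate 1 or 2 and 2 without ENV replicate 1 or 2. Fscn1, the bundler of filopodial actin, read 219, 194 and 315 CPM with buffer and 2077, 1367 and 1524 CPM with ENV (2.97 ± 0.28, adjusted p = 6.11e-04). Vasp, which elongates actin filaments, read 430.5, 450.1 and 439.9 CPM with buffer and 1398, 1347 and 1342 CPM with ENV (1.83 ± 0.11, adjusted p = 1.82e-04), and the leukocyte GTPase Rac2 734, 602 and 834 CPM with buffer and 1781, 1736 and 1744 CPM with ENV (1.47 ± 0.17, adjusted p = 0.00123). Each ENV library was well above each buffer library in all 3. Arhgef3, an exchange factor for small GTPases, read 1.62, 1.65 and 1.95 CPM with buffer and 52.4, 25.4 and 33.9 CPM with ENV (4.63 ± 0.34, adjusted p = 2.90e-04). Diaph3, a formin also used in cytokinesis, read 18.2, 19.3 and 15.02 CPM with buffer and 2.42, 3.98 and 4.19 CPM with ENV (-2.11 ± 0.22, adjusted p = 8.88e-04).

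Axon guidance genes, which macrophages also use for positioning, split evenly with 9 of 40 in each direction. Sema6d and Sema4c, membrane semaphorins, read 17.8, 23.2 and 11.99 and 10.6, 18.9 and 26.6 CPM with buffer and 65.7, 78.7 and 63.6 and 52.7, 65.5 and 96.2 CPM with ENV (2.18 ± 0.22 and 2.12 ± 0.36, adjusted p = 8.12e-04 and 0.00588). The secreted repellent Slit2 read 13.99, 17.8 and 9.20 CPM with buffer and 0.505, 1.01 and 0.627 CPM with ENV (-4.04 ± 0.34, adjusted p = 4.26e-04), and the semaphorin co-receptor Nrp1 259, 188 and 63.1 CPM with buffer and 27.9, 15.6 and 16.5 CPM with ENV (-2.87 ± 0.53, adjusted p = 0.00770). The abundant receptor Plxnb2 was not called (-0.29 ± 0.23, adjusted p = 0.371), or was called lower without buffer replicate 3 (adjusted p = 0.0190).

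Matrix and protease genes rose in 17 of 55 cases and fell in 5. The matrix metalloproteases led. Mmp9, the gelatinase, read 22.0, 11.2 and 6.97 CPM with buffer and 267, 805 and 464 CPM with ENV (5.44 ± 0.59, adjusted p = 0.00101). Mmp13, a collagenase, had 0, 1 and 1 counts with buffer and read 2.49, 5.61 and 4.85 CPM with ENV, and Mmp3, stromelysin, had 0, 0 and 1 counts and read 2.35, 8.03 and 1.22 CPM. Plau, the urokinase plasminogen activator, went against them at 815, 631 and 478 CPM with buffer and 36.8, 42.3 and 52.5 CPM with ENV (-3.67 ± 0.24, adjusted p = 2.09e-04), as did the matrix protein Sparc at 179, 188 and 293 CPM with buffer and 23.9, 27.8 and 31.3 CPM with ENV (-2.80 ± 0.24, adjusted p = 4.03e-04) and the laminin chain Lamb2 at 44.8, 45.2 and 25.3 CPM with buffer and 4.08, 8.29 and 3.53 CPM with ENV (-2.66 ± 0.37, adjusted p = 0.00270). The falls were 8 with a replicate block and 9 without buffer replicate 3. Fibroblast and mural cell markers summed to 50.1 to 69.9 CPM with buffer and 112.4 to 164.2 CPM with ENV. Of 10 tested, 2 rose (1 when any 1 library was left out) and 2 fell, with 1 rise and 4 falls under a replicate block or with library totals alone. Their median log2 change had the other sign from the sum, at -0.95, and Rgs5 was at 0 in all 6 libraries. Their part was not tested.

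Of 37 Wnt genes, 13 fell and 1 rose (median -0.73). The falls were 6 without buffer replicate 1 or 2 or ENV replicate 3 and 8 without ENV replicate 1. Lef1, a nuclear effector of beta-catenin, read 20.1, 22.5 and 20.5 CPM with buffer and 1.52, 2.58 and 1.85 CPM with ENV (-3.21 ± 0.21, adjusted p = 2.10e-04). The secreted antagonist Sfrp2 read 10.3, 4.80 and 6.27 CPM with buffer and 2.02, 1.17 and 1.25 CPM with ENV (-2.06 ± 0.39, adjusted p = 0.00894, or 0.0974 in the fit of 12 libraries). The ligand Wnt6 was the rise, at 1.51, 0.770 and 1.35 CPM with buffer and 17.7, 14.1 and 14.5 CPM with ENV (3.87 ± 0.31, adjusted p = 3.36e-04), and the rises were 2 with a replicate block or without buffer replicate 3. Ctnnb1, beta-catenin itself, was not called (0.17 ± 0.10, adjusted p = 0.249).

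In the TGF-beta, BMP and activin list, 11 of 44 fell and 6 rose. The falls were 5 without ENV replicate 1 or 2, 6 without buffer replicate 2, and 7 without buffer replicate 1 or ENV replicate 3. The type I receptor gene Tgfbr1 read 503, 625 and 309 CPM with buffer and 94.6, 110.5 and 92.0 CPM with ENV (-2.06 ± 0.24, adjusted p = 0.00130). The type II receptor gene Tgfbr2 was not called (0.23 ± 0.26, adjusted p = 0.534), and the ligand Tgfb1 was at -0.49 ± 0.16 (adjusted p = 0.0506), with adjusted p = 0.0473 without buffer replicate 2, 0.0109 with library totals alone and 0.0300 by DESeq2's test. The BMP antagonist Nbl1 read 19.3, 20.7 and 16.5 CPM with buffer and 2.13, 3.003 and 3.001 CPM with ENV (-2.60 ± 0.18, adjusted p = 2.51e-04). Skil, a repressor of SMADs, read 136, 179.9 and 124 CPM with buffer and 224, 303 and 275 CPM with ENV (1.07 ± 0.16, adjusted p = 0.00314). Of 25 growth factors and mitogens 5 rose and 7 fell, with 3 rises without buffer replicate 1 or ENV replicate 2. The falls were 4 without buffer replicate 1, 3 without buffer replicate 2 or ENV replicate 3 and 2 without ENV replicate 1. Pdgfb, a mitogen of mural and glial cells, read 39.8, 34.9 and 11.8 CPM with buffer and 3.86, 5.19 and 2.54 CPM with ENV (-2.69 ± 0.48, adjusted p = 0.00699), and Angptl4, an inhibitor of lipoprotein lipase, 4.19, 4.73 and 6.70 CPM with buffer and 45.3, 16.7 and 27.2 CPM with ENV (2.73 ± 0.42, adjusted p = 0.00383).

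Phagocytic and lectin receptors rose in 10 of 46 cases and fell in 16. Siglec1, the sialic acid receptor CD169, read 138, 98.8 and 64.6 CPM with buffer and 1502, 704 and 918 CPM with ENV (3.59 ± 0.41, adjusted p = 0.00122), and Siglec5 49.1, 26.4 and 82.1 CPM with buffer and 788, 553 and 811 CPM with ENV (3.96 ± 0.46, adjusted p = 0.00128). Reads of the latter may be shared with relatives. Clec5a, a lectin-like activating receptor, read 33.6, 38.6 and 17.3 CPM with buffer and 4.01, 5.78 and 2.87 CPM with ENV (-2.61 ± 0.36, adjusted p = 0.00261). The adaptors that many of these receptors signal through were not called. Fcer1g read 1838, 1671 and 2333 CPM with buffer and 1790, 1676 and 1672 CPM with ENV (0.01 ± 0.17, adjusted p = 0.962), and Tyrobp 813, 827 and 1058 CPM with buffer and 609, 657 and 645 CPM with ENV (-0.30 ± 0.15, adjusted p = 0.165), although Tyrobp was called lower with library totals alone (0.0294).

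In the TLR4 axis, through which ENV is known to act, 10 of 26 genes rose and 1 fell, with 2 falls under a replicate block and 3 without buffer replicate 3. Tlr4, the receptor itself, read 76.04, 81.2 and 43.5 CPM with buffer and 37.2, 40.7 and 39.4 CPM with ENV. Buffer replicate 3 lay close to the ENV libraries, and the gene was not called (-0.57 ± 0.21, adjusted p = 0.0861), or was called lower without that library (-0.79, 8.61e-04) or with library totals alone (0.0406). Cd14, its co-receptor, read 464, 491 and 395 CPM with buffer and 1260, 874 and 1144 CPM with ENV (1.49 ± 0.18, adjusted p = 0.00159). Irak3, a kinase-dead brake of the pathway, read 67.7, 60.3 and 56.3 CPM with buffer and 201, 182 and 174 CPM with ENV (1.80 ± 0.13, adjusted p = 2.90e-04), and Pik3ap1, an adaptor to PI3 kinase, 505, 462 and 307 CPM with buffer and 1326, 1102 and 1039 CPM with ENV (1.65 ± 0.22, adjusted p = 0.00206). Tab1, a partner of the kinase TAK1, was the fall (-0.58 ± 0.11, adjusted p = 0.00964). Of 56 genes of MAPK, RGS and mRNA decay feedback, 14 rose and 10 fell (9 and 12 with library totals alone), with 8 rises without buffer replicate 2 or ENV replicate 2 and 9 without ENV replicate 1. Dusp2, a nuclear MAP kinase phosphatase, read 2.60, 3.47 and 2.96 CPM with buffer and 43.8, 26.2 and 27.2 CPM with ENV (3.64 ± 0.28, adjusted p = 3.20e-04). Rasgrp1, a relative of Rasgrp3, went the other way from it, at 3.70, 2.94 and 3.10 CPM with buffer and 19.9, 43.2 and 17.6 CPM with ENV (3.24 ± 0.37, adjusted p = 0.00126).

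Cell death regulators rose in 13 of 34 cases and fell in 4. The rises were 8 without buffer replicate 1, 7 without buffer replicate 2 or ENV replicate 3 and 6 without ENV replicate 1. Mlkl, the pore-forming effector of necroptosis, read 19.2, 21.1 and 27.8 CPM with buffer and 127, 90.7 and 119.7 CPM with ENV (2.51 ± 0.22, adjusted p = 4.66e-04), and Ripk3, the kinase that activates it, 65.2, 69.4 and 79.8 CPM with buffer and 127, 104 and 140.0 CPM with ENV (0.99 ± 0.16, adjusted p = 0.00457). ENV libraries stood above buffer libraries in both. The survival gene Bcl2 read 26.9, 29.2 and 11.8 CPM with buffer and 3.54, 5.25 and 2.87 CPM with ENV (-2.33 ± 0.38, adjusted p = 0.00491), and the pro-apoptotic Bcl2l11 56.9, 47.2 and 40.3 CPM with buffer and 19.5, 18.6 and 14.1 CPM with ENV (-1.26 ± 0.19, adjusted p = 0.00364, or 0.111 in the fit of 12 libraries). The paired survival gene Bcl2l1 was not called (0.50 ± 0.19, adjusted p = 0.0840), but was with a replicate block (adjusted p = 0.0159) or without ENV replicate 3 (0.0368).

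A set of genes held its level relative to the median gene. For 2106 tested genes the 95% interval of the log2 change lay within 0.5 of 0. The most abundant of these with a symbol were Fcrl2, an Fc receptor-like gene, at 6366, 6311 and 7649 CPM with buffer and 6165, 7059 and 5975 CPM with ENV (0.12 ± 0.15, 95% interval -0.24 to 0.47), and the constitutive chaperone Hspa8 at 3226, 3386 and 3537 CPM with buffer and 2442, 3045 and 3189 CPM with ENV (-0.03 ± 0.13, -0.35 to 0.29). Fcer1g (-0.40 to 0.42), the actin branching subunit Actr2 (-0.13 to 0.46), the small GTPase inhibitor Arhgdia (-0.15 to 0.49) and the chaperone Hsp90ab1 (-0.09 to 0.49) followed. The groups of Fcrl2 overlapped, whereas in CPM every ENV library of Hspa8 read below every buffer library. With library totals alone the median gene lay at -0.23 in place of -0.03, and no intervals are given for that scaling.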

How the data were processed

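Gene counts of the 6 libraries were used as deposited by the authors, whole numbers per gene, and were not normalized. The submitters' processing notes name HISAT2, StringTie 1.3.3b and the build mRatBN7.2; the sources used here give neither their settings nor whether strand was used. CPM values are counts divided by the library total, are not per length, and are compared only within a gene. Genes passing edgeR's filter were tested with edgeR 4.0.16 (limma 3.58.1, R 4.3.3): TMM scaling, a robust quasi-likelihood fit of the 6 libraries and Benjamini-Hochberg adjustment over the 12844 genes tested, with calls at an adjusted p under 0.05. SE is the log2 change divided by the root of F. TMM factors were 1.043 to 1.115 with buffer and 0.8909 to 0.9577 with ENV, so equal CPM gives a log2 change above 0. The size of this offset shows in the median gene, at -0.03 in the main test and -0.23 with library totals alone. The CPM values and list sums printed here carry no TMM scaling. Group overlap was judged in log2 CPM with a prior count of 2. The scripts were tested on simulated data.

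Alternatives were DESeq2 1.42.0 (its size factors and its Wald test), library totals alone, no filter, a fit of all 12 microglial libraries, a replicate block, and leaving out each library. Same-numbered libraries deviated together (correlations of 0.317, 0.469 and 0.432, against -0.422 to 0.0726 otherwise), so the numbers were taken to pair the libraries. Deviations were taken from each group's own mean, so positive same-number values push the others below 0. The other correlations are thus no separate evidence of pairing. The main test, which gave the calls, SEs and adjusted p-values above, used group alone and left this pairing out. Pairing enters only through the replicate block. With that block, 26 proteasome genes and 22 genes of the ER list were called higher, in place of 21 and 16. 3150 identifiers without a symbol held 2.42 to 4.26% of counts and were tested but not described.

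The members and lists were chosen with earlier results of these data known. Genes were named by rule: the 12 largest rises and falls outside the inflammatory symbols (called, groups apart, a group mean of 10 CPM or more), the 3 largest called rises and falls and the 2 most abundant uncalled genes of each list, the 8 largest gains and losses in CPM, the 6 most abundant genes with an interval within 0.5 of 0, and the largest rise and fall of each symbol family. Cdk1, Hspa5, Sox10 and Tlr4 and the members given only by name were chosen after their values were seen. Promoter windows came from RefSeq (GRCr8), matched by symbol, and are not coordinates of the authors' build. A few genes that the rule names are not reported here.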

Additional observations from a re-analysis of the deposited data

How the results depend on the processing

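All 3972 calls given a value kept their direction under every alternative run. With the replicate block, which follows the pairing by number, 5036 genes were called (2512 higher, 2524 lower). Library totals alone gave 3118 lower and 1432 higher, so that 31.5% of calls were higher in place of 52.5%. DESeq2's test called 4740, its size factors in edgeR 4000, no filter 3856 and the fit of 12 libraries 3066, of which 1259 were lower. Leaving out 1 library at a time gave 2466 to 5282 calls, 1341 to 2835 higher and 1106 to 2447 lower, the highest of each without buffer replicate 3. Leaving out replicate 3 of both groups, an alternative chosen after seeing the data, gave 4760 calls. Of 342 genes named by rule 261 were called, and 205 of these were called whichever 1 library was left out. The fit of 12 libraries ended the calls of 43 of the 342. The replicate block ended the calls of Zfp704 (adjusted p = 0.0761) and Mrps2 (0.0517), which belong to symbol families not described above, and added 11. The cause of these shifts was not tested. With 3 libraries a group, genes whose replicates vary widely, and list counts made of small changes such as those of the proteasome, are the least settled. Depth limits genes under about 0.113 CPM.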

Other observations

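In all, 6 genes had 0 counts in all 3 buffer libraries and at least 1 CPM in each ENV library, and no gene met the reverse. Folds are lower bounds against 3 counts in the shallowest buffer library (0.113 CPM). Retn, which encodes resistin, read 6.68, 17.5 and 5.87 CPM with ENV and was at least 88.5-fold higher. Il23r, a subunit of the interleukin-23 receptor, read 2.56, 6.98 and 5.61 CPM and was at least 44.6-fold higher. Serpinb3a, a serine protease inhibitor, read 2.02, 6.04 and 8.21 CPM and was at least 47.9-fold higher. The desmosomal cadherin gene Dsg3 (at least 12-fold), Mcemp1 (at least 15.7-fold) and a numbered locus without a gene name (at least 55.5-fold) were the others.

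Symbol families beyond the lists differed in their counts, against 16.2% higher and 14.7% lower over all genes. Of 290 zinc finger genes named Zfp, Znf or Zbtb, 15 rose and 37 fell. The rises were 24 without buffer replicate 3, and the falls 62 without that library, 20 without buffer replicate 1 or ENV replicate 3, 16 without buffer replicate 2, 22 without ENV replicate 1 and 18 without ENV replicate 2. Of 46 deubiquitinases named Usp, 11 rose and 1 fell (3 and 7 with library totals alone), with 8 falls without buffer replicate 3 and with 3 to 5 rises when any other library was left out. Its 1 fall was lost without buffer replicate 1 or 2 or ENV replicate 1 or 2. Usp18, which removes the interferon-induced modifier ISG15, read 4.30, 4.76 and 10.6 CPM with buffer and 497, 287 and 315 CPM with ENV (log2 change 6.003 ± 0.49, adjusted p = 3.74e-04, edgeR). Of 61 Rab GTPases of vesicle traffic, 16 rose and 12 fell (12 and 17 with library totals alone), with 9 rises without buffer replicate 2 and 7 falls without buffer replicate 1 or 2 or ENV replicate 2 or 3. Rab8b, of traffic to the cell surface, read 268, 249 and 182 CPM with buffer and 739, 781 and 637 CPM with ENV (1.83 ± 0.18, adjusted p = 6.14e-04), and Rab15 10.4, 10.6 and 3.97 CPM with buffer and 0.433, 1.04 and 1.35 CPM with ENV (-2.93 ± 0.51, adjusted p = 0.00609). Of 69 mitochondrial ribosomal proteins 3 rose and 1 fell (2 and 10 with library totals alone), with 23 rises without buffer replicate 3 and 0 falls without any other library. Of 27 Siglec, Clec and Lilr receptors 10 rose and 6 fell, and some of their reads may be shared between relatives.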
